A study of Homo sapiens with 12 samples.

Results

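The genes described are a set of 10 regulators and receptors, some of which act in neural crest and pigment cells. They are TFAP2A, TFAP2B, TFAP2C, PAX3, SOX9, MN1, CUX1, CUX2, ERBB3 and EDNRB, taken by gene name from tables of 19423 genes. All 10 have a row in the tables of both cell lines. The members were chosen by their normalized read counts in the A375 branches (TFAP2B and MN1 higher, CUX2 lower in bead-positive cells), so the A375 values of the members are given as a description, with no test, and 253J is the comparison the choice did not use.

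The series compares sub-populations of 2 human cancer lines, A375 from a skin melanoma and 253J from a transitional cell carcinoma of the bladder, that were separated by how readily the cells take up fluorescent beads of 2.4 µm. Uptake lasted 24 h before flow cytometric sorting. The bead-positive branch was kept from cells with at least 1 bead and the bead-negative branch from cells with none, each through 5 rounds of sorting with 5 generations of culture before a sort. The groups are A375 positive, A375 negative, 253J positive and 253J negative, with 3 libraries each and no other treatment or engineered allele in the labels. Each branch descends from 1 line, and the labels do not say whether its libraries came from separate cultures, so that p-values measure only the spread between these libraries, which may be technical. A difference tied to uptake cannot be told apart from another difference between the branches.

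The recovered depth was 14576506 to 17916519 reads per library. By the sample numbers in the labels, the libraries form a low set (at most 12) and a high set (at least 19). A375 positive replicates 1 and 2 and negative replicate 1 have low numbers, as have replicates 1 and 2 of both 253J branches. Within a branch, the chi-square statistic over its degrees of freedom was at most 1.63 between libraries of 1 set and at least 7.18 across sets. In A375 the sets are unevenly spread over the branches, and for the members the differences within each set are given beside the pooled ones. Differences of other genes are pooled unless stated. Of melanocytic markers, DCT was at 3859 to 15184 normalized reads in A375 and 6.2 to 20.2 in 253J, and MITF at 3324 to 5462 and 1117 to 1192. The epithelial gene KRT19 was at 1.9 to 5.9 in A375 and 6309 to 9234 in 253J. KRT7, KRT8, KRT18 and CDH1 were also higher in every 253J library than in any A375 library, though KRT18 was at 848 to 1141 in A375. EPCAM (0.0 to 1.0 in A375 and 0.0 to 6.1 in 253J) and GATA3 (6.9 to 33.2 and 14.2 to 26.0) overlapped between the lines. No more than 27.4 normalized reads came from the 4 measured leukocyte markers together in any library. Between the A375 branches, the sum of 6 melanocytic markers was 12469 to 15700 normalized reads in positive and 15112 to 26950 in negative libraries, with TYR (8.93 and 70.2, limma adjusted p = 0.0015) and DCT (4828 and 12394, 0.0312) lower in positive cells. The others were not called. MLANA (72.0 and 67.2, limma adjusted p = 0.76) and S100B (2014 and 1731, 0.306) had the higher mean in positive cells. PMEL (2805 and 3803, 0.325) and MITF (4133 and 4695, 0.677) had the lower mean. The sum of 7 epithelial markers was 974 to 1065 in positive and 1194 to 1278 in negative libraries, with KRT18 lower (limma adjusted p = 0.0417), and that of 3 stromal markers 62.3 to 70.9 and 74.2 to 95.6. Their part in the A375 differences below was not tested.

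AP-2 proteins, encoded by the TFAP2 genes, bind GC-rich DNA as dimers and help to specify the neural crest, the embryonic cell population that gives rise to melanocytes. PAX3 and SOX9 are transcription factors of the same lineage, and the receptors EDNRB and ERBB3 receive endothelin and neuregulin signals in crest cells. MN1 is a transcriptional coregulator first found at a translocation in meningioma, CUX1 is a widely expressed homeobox factor, and CUX2 is its close relative, best known from upper-layer neurons of the cortex.

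The start regions of CUX2 and TFAP2B are shown because these genes had some of the largest differences in A375, in opposite directions. RefSeq sequences (GRCh38.p14) were found for 6 of the 10 members, not for MN1, TFAP2C, SOX9 and ERBB3. Each line holds the 250 bases before an annotated start, 5′ to 3′, and capitals mark matches to the AP-2 core GCCNNNGGC on either strand. CUX2 has 2 annotated starts, at chr12:111033915-111034164 and chr12:111099754-111100003, plus strand, and the TFAP2B region is chr6:50818621-50818870, plus strand.
CUX2 start 1: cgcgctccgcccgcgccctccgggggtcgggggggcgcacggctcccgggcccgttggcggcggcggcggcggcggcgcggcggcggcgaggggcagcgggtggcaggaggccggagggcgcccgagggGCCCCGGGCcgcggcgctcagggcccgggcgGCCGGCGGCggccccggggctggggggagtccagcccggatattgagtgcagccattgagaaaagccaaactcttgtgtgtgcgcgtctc
CUX2 start 2: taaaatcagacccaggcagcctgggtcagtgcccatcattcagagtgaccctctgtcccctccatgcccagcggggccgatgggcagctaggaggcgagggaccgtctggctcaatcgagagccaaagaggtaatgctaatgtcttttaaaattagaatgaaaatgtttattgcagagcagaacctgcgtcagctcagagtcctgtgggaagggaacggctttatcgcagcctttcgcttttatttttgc
TFAP2B: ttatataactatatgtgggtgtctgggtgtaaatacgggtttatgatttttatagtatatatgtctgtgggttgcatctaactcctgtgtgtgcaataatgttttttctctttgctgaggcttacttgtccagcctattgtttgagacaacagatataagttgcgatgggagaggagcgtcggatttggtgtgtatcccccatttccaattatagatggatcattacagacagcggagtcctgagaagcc
The first CUX2 region is 81.2% G and C and holds 2 matches, whose first bases lie 121 and 90 bases before the start, against 51.6% and no match in the second region. The TFAP2B region is 40.8% G and C, with no match. The RefSeq starts differ from the GENCODE gene positions used below, where CUX2 begins at 111034024 and TFAP2B at 50818723. These positions lie inside the first CUX2 region and the TFAP2B region, and both CUX2 matches fall within the GENCODE gene. The median over 35116 such regions was 58.0% G and C, and 19.8% of them hold at least 1 match. A match is a sequence description and no binding was measured.

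The clearest differences in A375 were in MN1, TFAP2B and CUX2. MN1, a gene of chromosome 22 (ENSG00000169184, 27748277 to 27801498, minus strand), had 117.3, 114.5 and 112.5 normalized reads in A375 positive libraries (replicates 1 to 3, the order used throughout), and 2.0, 4.9 and 5.0 in the negative ones. Every positive library was far above every negative one, and the negative level rested on 12 reads in all, against 345 in the positive libraries. The log2 difference, taken as positive minus negative after adding 1 to each value, was 4.61 ± 0.30 (SE, n = 3 each), the 4th largest rise of 14118 genes tested. Scaled by depth, the summed reads were 28.7-fold higher in positive libraries, a ratio that rests on the 12 negative reads. In these bulk libraries fewer cells with a transcript and less transcript per cell cannot be told apart.

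TFAP2B (ENSG00000008196, chromosome 6, 50818723 to 50847613, plus strand) encodes AP-2β, which in zebrafish marks melanocyte stem cells. It had 1057.9, 1067.1 and 1326.6 normalized reads in A375 positive libraries and 142.6, 187.9 and 199.1 in negative ones. The branches were far apart, and within each branch the high-numbered libraries were the highest. The log2 difference was 2.70 ± 0.14 (SE), and 2.89 and 2.77 within the low and the high number set.

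CUX2 (ENSG00000111249, chromosome 12, 111034024 to 111350554, plus strand) had 8.3, 12.3 and 21.3 normalized reads in A375 positive libraries and 231.4, 287.8 and 260.8 in negative ones. All positive libraries were far below all negative ones, and positive replicate 3 was the highest of its branch. The log2 difference was -4.21 ± 0.30 (SE), the 3rd largest fall in the table, and -4.39 and -3.62 within the low and high set. The summed reads, 42 in positive and 785 in negative libraries, gave an 18.7-fold higher level in negative libraries after scaling by depth. For MN1 the values within the sets were 5.28 and 4.25.

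**Figure D1:**
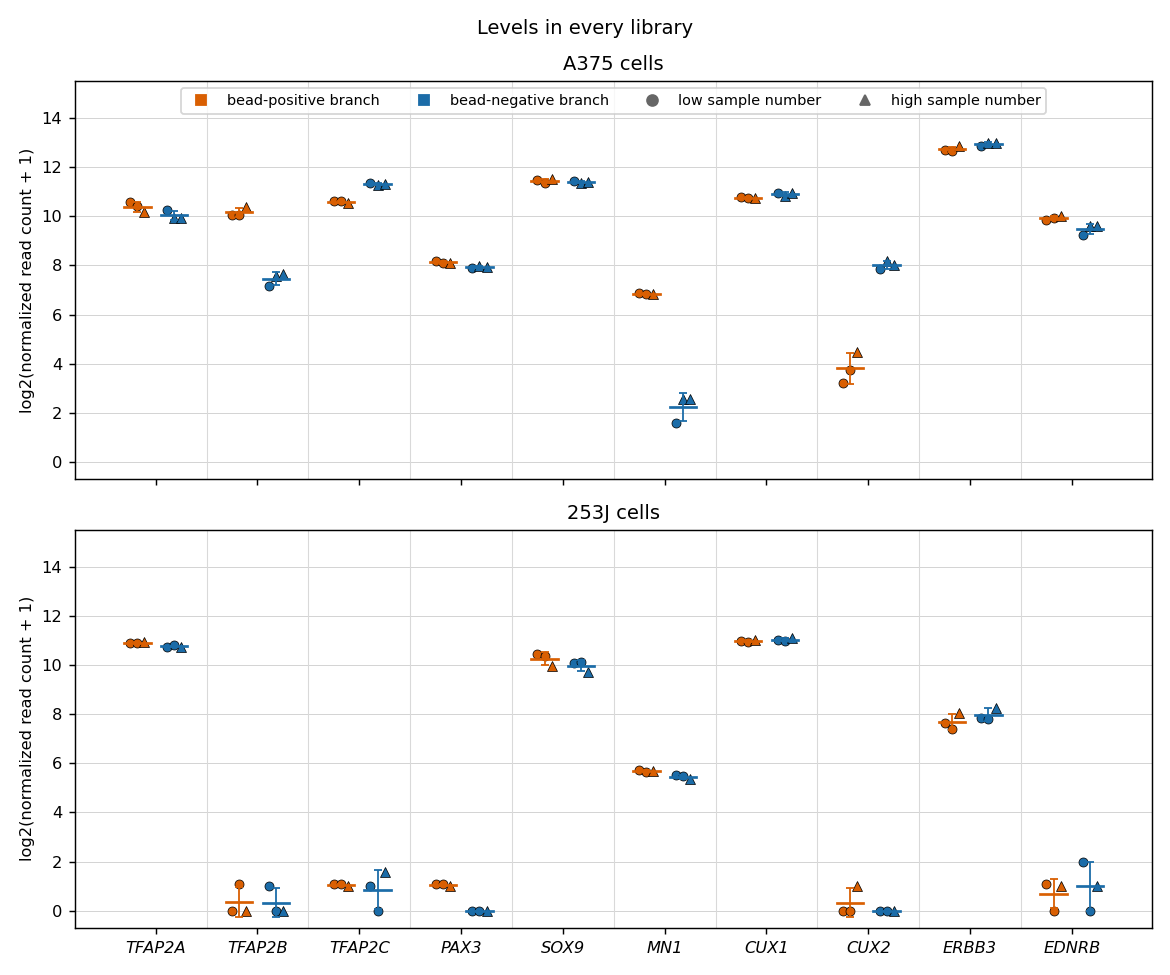
Normalized read counts of the 10 genes as log2(value + 1) in each library of A375 (upper panel) and 253J (lower panel), with bead-positive libraries to the left of bead-negative ones. Bars are means ± SD of the log2 values of 3 libraries, circles are low and triangles high sample numbers; MN1 and TFAP2B lie higher and CUX2 lower in A375 positive cells, whereas TFAP2B, TFAP2C, PAX3, CUX2 and EDNRB have at most 2.9 normalized reads in any 253J library.

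The other AP-2 genes differed less than TFAP2B in A375. TFAP2C, which encodes AP-2γ and is known for its role in trophoblast and germ cells (chromosome 20, 56629302 to 56639283), had 1552.0, 1562.8 and 1490.7 normalized reads in positive libraries and 2611.2, 2471.9 and 2522.3 in negative ones. The branches did not overlap, and the log2 difference was -0.72 ± 0.05 (SE), with -0.75 for the low and -0.74 for the high sample numbers. Of the 24 protein-coding genes tested within 5 Mb of its start, 8 were called lower (limma) and 0 higher, and 22 had a negative difference, with a median of -0.24. What part the surrounding region has in the TFAP2C difference was not tested.

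TFAP2A, the founding member AP-2α (chromosome 6, 10393186 to 10419659), had 1530.2, 1352.8 and 1144.1 normalized reads in A375 positive libraries and 1216.8, 981.2 and 979.5 in negative ones. Here the branches overlapped, since positive replicate 3 lay below negative replicate 1. The difference was 0.34 ± 0.12 (SE) on the log2 scale and smaller within the sets, at 0.24 and 0.22. Exons of TFAP2A share 438 bases with the antisense gene TFAP2A-AS1, which had 7.9 to 27.0 normalized reads in A375. The counting strand is not known, and reads of the pair cannot be told apart there. Shorter exon overlaps touch EDNRB (80 bases) and ERBB3 (31 bases), and a second antisense gene shares 941 bases with TFAP2A. Levels of these 3 partners were not used here.

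Per kilobase of annotated exon, the summed TFAP2 level in A375 was 860 ± 11.99 normalized reads in positive and 1000 ± 34.9 in negative libraries (SD, n = 3 each). TFAP2B made up 19.7%, 20.2% and 25.4% of that sum in positive libraries and 2.23%, 3.14% and 3.27% in negative ones. TFAP2C was the most abundant of the family in every A375 library, with 59.4% ± 1.18 in positive and 84.3% ± 0.636 in negative libraries. TFAP2A supplied the remaining 18.8% ± 2.46 and 12.8% ± 1.20.

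**Figure D2:**
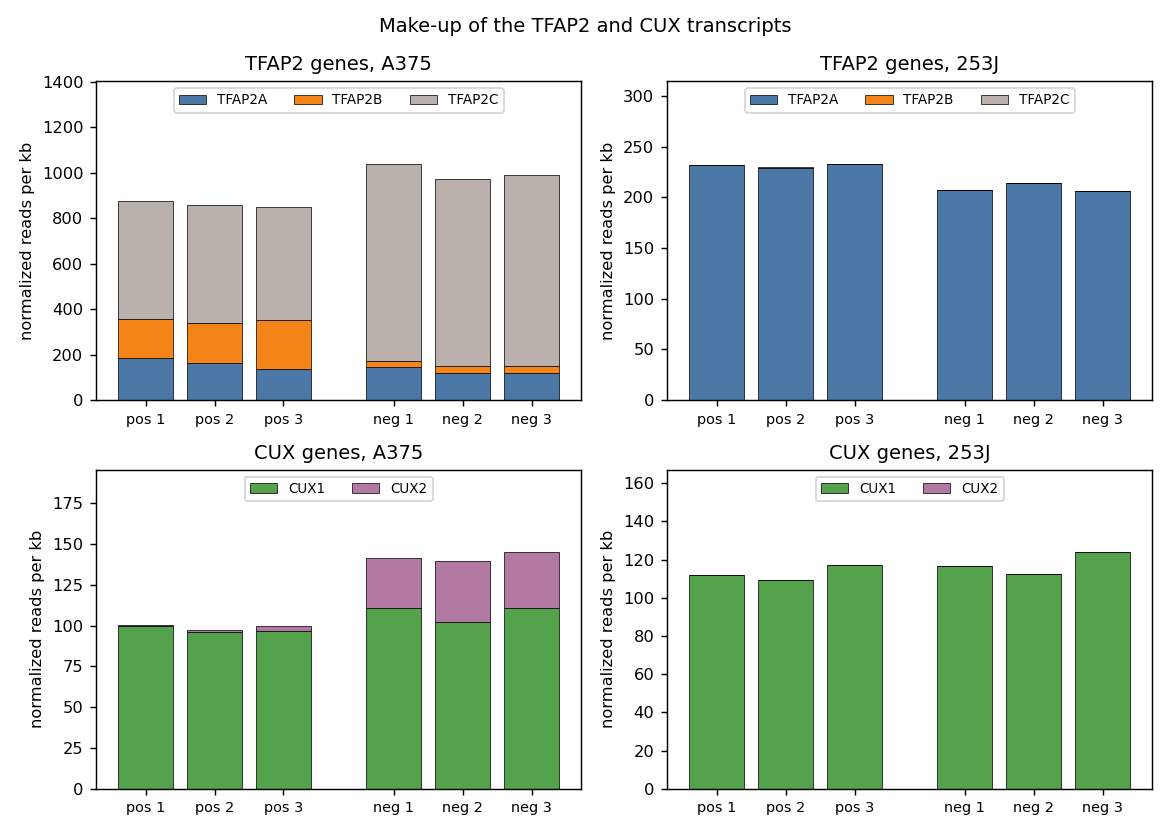
Normalized reads per kilobase of exon of the TFAP2 genes (top) and the CUX genes (bottom), stacked for each library of A375 (left) and 253J (right), bead-positive libraries first. In A375 the TFAP2B share is larger and the TFAP2C and CUX2 shares are smaller in positive cells, while 253J has almost only TFAP2A and CUX1.

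CUX1, on chromosome 7 (101815904 to 102283958), had 1772.1, 1707.5 and 1720.8 normalized reads in A375 positive libraries and 1973.9, 1820.0 and 1970.9 in negative ones. All positive libraries were below all negative ones, by a log2 difference of -0.15 ± 0.05 (SE). Per kilobase, CUX2 made up 1.84% ± 0.877 of the summed CUX level in positive and 24.0% ± 2.76 in negative A375 libraries (SD, n = 3 each). The sum itself was 99.3 ± 1.57 in positive and 142 ± 2.57 normalized reads per kilobase in negative libraries.

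Of the crest factors, PAX3, which acts upstream of MITF in melanocytes (chromosome 2, 222199888 to 222298996), had 290.7, 276.2 and 270.6 normalized reads in A375 positive libraries and 238.4, 248.3 and 244.9 in negative ones. These groups did not overlap, though the log2 difference was only 0.19 ± 0.08 (SE). SOX9, which drives chondrocyte fate and also acts in crest and pigment cells (chromosome 17, 72121020 to 72126420), had 2868.4, 2597.7 and 2908.5 in the positive branch, against 2746.9, 2603.5 and 2711.5 in the negative branch. Its branches overlapped, and the difference of 0.05 ± 0.06 (SE) was -0.01 for low and 0.13 for high sample numbers.

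The receptors moved by less than the 3 leading genes. EDNRB, the endothelin receptor needed for melanoblast migration (chromosome 13, 77895481 to 77975529), had 909.4, 970.6 and 1041.8 normalized reads in A375 positive libraries and 597.4, 772.5 and 774.4 in negative ones. All positive libraries were the higher ones, with a log2 difference of 0.45 ± 0.11 (SE), and 0.65 and 0.43 within the low and high set. ERBB3, the neuregulin receptor that signals through ERBB2 (chromosome 12, 56076799 to 56103505), had 6610.9, 6429.0 and 7361.4 in the positive branch, against 7411.7, 8062.6 and 8025.9 in the negative branch. Positive libraries were lower throughout, narrowly so for replicate 3, and the difference was -0.21 ± 0.07 (SE), or -0.19 and -0.13 within the sets.

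For 8 of the 10 members, all A375 positive libraries lay on one side of all negative ones, 4 above and 4 below, which was so for 29.5% of all genes tested (14.4% above, 15% below), and limma called 10.2% of all genes. Since the members were chosen in this contrast, nothing is read from these counts. All 10 passed the filter of a mean of at least 10 normalized reads in A375. The median of the absolute log2 difference was 0.40 over the members and 0.14 over all genes tested. Because of the same choice, nothing is read from these medians either.

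**Figure D3:**
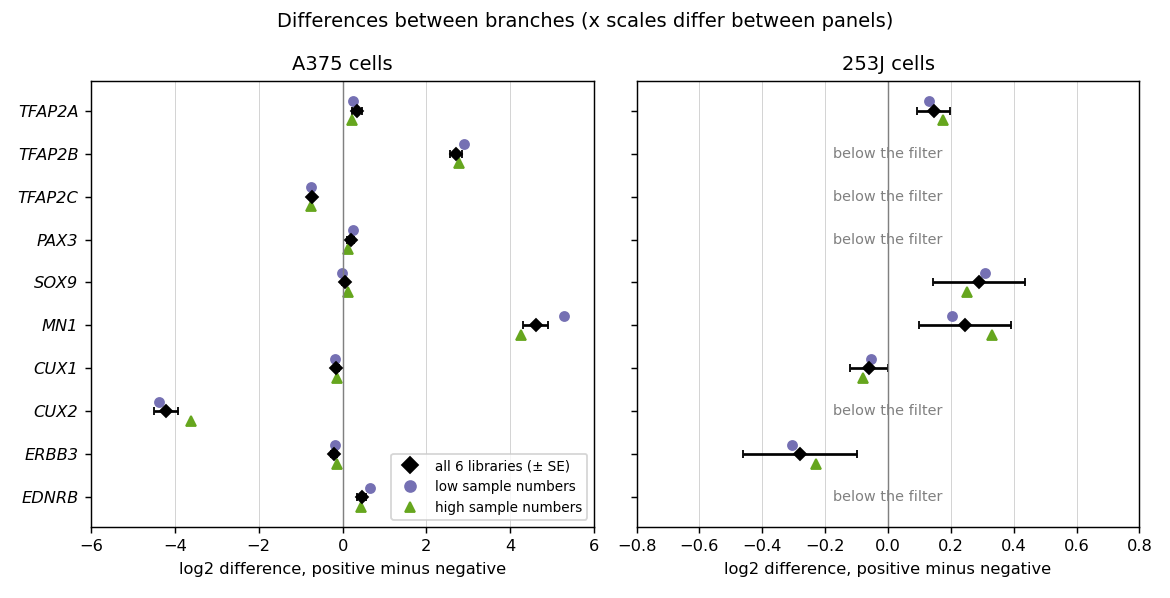
Log2 differences, positive minus negative, of the 10 genes in A375 (left) and 253J (right) over all 6 libraries with their standard error, and within the low and the high sample numbers. MN1 (4.61), TFAP2B (2.70) and CUX2 (-4.21) stand apart in A375, and the 5 genes that passed the filter in 253J lie between -0.28 and 0.29.

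Ordered by level per kilobase, A375 positive cells had ERBB3 (752 ± 54.7 normalized reads per kilobase, SD, n = 3), SOX9 (709 ± 43.0), TFAP2C (511 ± 12.9), TFAP2B (187 ± 24.8), EDNRB (174 ± 11.8), TFAP2A (162 ± 23.4), CUX1 (97.4 ± 1.92), PAX3 (35.2 ± 1.31), MN1 (14.9 ± 0.313) and CUX2 (1.83 ± 0.871). ERBB3 and SOX9 overlapped in range, as did TFAP2B with EDNRB and EDNRB with TFAP2A. In A375 negative cells ERBB3 (867 ± 40.5) and TFAP2C (844 ± 23.5) overlapped at the top, followed by SOX9 (683 ± 18.98). TFAP2A (128 ± 16.5), EDNRB (127 ± 18.1) and CUX1 (108 ± 4.95) formed an overlapping run, CUX2 (34.0 ± 3.69), PAX3 (30.7 ± 0.634) and TFAP2B (28.7 ± 4.87) overlapped near the bottom, and MN1 was last (0.516 ± 0.221). TFAP2B thus stood in 4th place in positive cells and in 9th place in negative cells.

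The surroundings of the 3 leading genes had medians near 0 in A375. Within 5 Mb of MN1, 70 protein-coding genes had a median log2 difference of -0.01, with 0 called higher and 4 lower. Within 5 Mb of TFAP2B the median of 19 genes was -0.03 (1 higher, 1 lower), and within 5 Mb of CUX2 that of 67 genes was -0.07 (2 higher, 2 lower).

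The profiles nearest to those of the leading genes over the 6 A375 libraries were found by the root mean square difference of mean-centred log2 values. For MN1 they were TNFRSF11B (0.62), ADGRL2 (0.68), AF121898.3 (0.80), ROBO2 (0.82) and SLC8A1 (0.87). For TFAP2B they were CCBE1 (0.19), DYNC1I1 (0.20), IGFBP7 (0.21), ARHGAP20 (0.21) and PAPSS2 (0.22). For CUX2 they were GLUL (0.31), CHRDL1 (0.52), RUNX3 (0.53), SULF2 (0.59) and SERPINH1 (0.63). SERPINH1, a collagen chaperone, had 59.2, 54.9 and 49.7 normalized reads in the positive branch, against 2081.6, 1691.5 and 1758.9 in the negative branch. It fell as CUX2 did, but by more, and its level was higher in every library. These lists are descriptive and rest on 6 libraries of 2 branches.

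In 253J the set looked different from the outset. TFAP2B, TFAP2C, PAX3, CUX2 and EDNRB had at most 3 reads in any library and fell below the filter, so 5 of the 10 members were tested. TFAP2B had 1 read in all 3 positive and 1 in all 3 negative libraries together, and CUX2 had 1 and 0. TFAP2A and CUX1 supplied nearly all of their families, TFAP2A with 99.8% ± 0.0508 of the summed TFAP2 level per kilobase in positive and 99.8% ± 0.167 in negative libraries. The tables of the lines were scaled separately, so levels are set across lines only in order of magnitude.

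No member was called between the 253J branches by limma (0 of 5, where 1.09% of 14189 genes were called), nor by edgeR or DESeq2 on recovered reads. The share of all genes with an unadjusted p under 0.05 is not given here, so nothing is read from the 1 member of 5 under it. That gene was TFAP2A, with 1914.0, 1894.5 and 1925.1 normalized reads in the positive branch, against 1713.1, 1768.0 and 1703.7 in the negative branch. The branches did not overlap and both were tight, with a log2 difference of 0.15 ± 0.05 (SE, limma adjusted p = 0.262, 95% interval 0.03 to 0.26). TFAP2A-AS1, whose exons overlap it, had 71.7 to 97.3 normalized reads there.

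SOX9 had 1384.7, 1316.7 and 988.5 normalized reads in 253J positive and 1083.0, 1095.4 and 830.8 in negative libraries. The high-numbered library was the lowest in each branch, and the branches overlapped (0.29 ± 0.15 SE, limma adjusted p = 0.435, 95% interval -0.04 to 0.62). ERBB3 had 197.8, 166.6 and 260.8 in the positive branch, against 230.3, 218.9 and 306.0 in the negative branch, again overlapping, with the high-numbered library on top in each branch (-0.28 ± 0.18 SE, limma adjusted p = 0.552, 95% interval -0.69 to 0.13). With the replicate number as a block, limma called all 3 of these genes, TFAP2A (adjusted p = 0.0365) and SOX9 (0.00148) higher and ERBB3 (0.0379) lower, among 14% of all genes called in that fit. A block for the number set called the same 3 genes (0.0125, 0.000101 and 0.0256), among 18.6% of all genes. Without the filter 1 member was called, PAX3, which rested on 3 reads in positive and 0 in negative libraries.

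MN1 had 52.4, 48.5 and 50.7 normalized reads in 253J positive and 44.3, 43.1 and 40.1 in negative libraries. All positive libraries were the higher ones, but the difference of 0.25 ± 0.15 (SE, limma adjusted p = 0.523) had a 95% interval of -0.09 to 0.58 and did not pass with the replicate block either (0.361). CUX1 had 1988.9, 1941.9 and 2084.5 in the positive branch, against 2073.5, 2003.6 and 2200.4 in the negative branch (-0.06 ± 0.06 SE, limma adjusted p = 0.708, 95% interval -0.20 to 0.08). Libraries of the branches did not overlap for 2 of the 5 members tested, both higher in positive cells, against 20.2% of all genes (10.4% higher, 9.83% lower). Per kilobase, SOX9 (313 ± 53.8 in positive, 255 ± 37.9 in negative cells) and TFAP2A (231 ± 1.87 and 209 ± 4.20) led the order in 253J, followed by CUX1 (113 ± 4.08 and 118 ± 5.61), ERBB3 (23.1 ± 5.31 and 27.8 ± 5.24) and MN1 (6.57 ± 0.254 and 5.52 ± 0.281). SOX9 and TFAP2A overlapped in range in negative cells.

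Genes related to the members by family, signalling or reported regulation were read from the same fits in 8 lists, which leave out the members themselves. Of 137 listed genes, 120 had a row, and the others were not analysed here. In A375, 13 of 101 tested list genes rose and 10 fell by limma, where 4.99% of all genes were called higher and 5.26% lower. The lists were drawn up with A375 results known, so nothing is read from their share of calls against that of all genes. The median log2 difference was 0.01 over the list genes and 0.00 over all genes. Genes given below as not passing were chosen after their values were seen. Leaving out positive replicate 1 left 4 higher and 6 lower, and leaving out positive replicate 2 left 5 and 4. The counts were 6 and 4 when negative replicate 2 was dropped, and 7 and 5 when negative replicate 3 was.

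Among AP-2 family members and cofactors in A375, 2 of 10 fell and 0 rose, with a median log2 difference of -0.16, and limma at an unadjusted p under 0.05, edgeR and DESeq2 named 3, 2 and 2 genes. WWOX, which binds AP-2γ, was at 47.5 ± 8.57 normalized reads in positive and 79.2 ± 2.93 in negative libraries (log2 difference -0.74 ± 0.16 SE, limma adjusted p = 0.0277). Its call was lost when positive replicate 2 (0.109) or either of negative replicates 2 (0.108) and 3 (0.106) was dropped. YEATS4 fell by 0.28 on the log2 scale (limma adjusted p = 0.0386), a call lost whichever of the 6 libraries was dropped (0.0565 to 0.158). The AP-2 inhibitor KCTD15 was at 1469 and 1602 normalized reads in positive and negative libraries and the coactivator CITED2 at 264 and 293, and neither passed. With the number set as a block, limma called KCTD15 lower (adjusted p = 0.00199) but not CITED2 (0.359), in a fit that called 4523 genes.

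Of 14 tested genes reported as AP-2 targets, 3 rose and 2 fell in A375. The cell cycle inhibitor CDKN1A (p21) stood at 2863 ± 209 normalized reads in positive and 1605 ± 89.7 in negative libraries (0.83 ± 0.07 SE, limma adjusted p = 0.000745). The adhesion molecule MCAM fell to 2688 ± 118 in positive cells, against 3840 ± 68.9 in negative cells (-0.52 ± 0.05, limma adjusted p = 0.00139). IGFBP5, an IGF-binding protein, rose 1.72-fold (225 ± 27.5 and 130 ± 10.96, limma adjusted p = 0.00814). These 3 calls held whichever library was dropped.

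Of 24 tested neural crest transcription factors, 3 rose and 2 fell in A375. ID2, an inhibitor of helix-loop-helix factors, was at 88.5 ± 11.8 normalized reads in positive and 50.7 ± 6.98 in negative libraries (0.79 ± 0.16 SE, limma adjusted p = 0.023), and the homeobox gene GBX2 at 26.6 ± 1.75 and 12.3 ± 1.48 (1.06 ± 0.21, 0.0196). LEF1, a nuclear effector of WNT signals, fell by 0.32 on the log2 scale (1296 ± 118 and 1613 ± 32.8, limma adjusted p = 0.0299). Without positive replicate 2 the adjusted p was 0.105 for ID2, 0.0858 for GBX2 and 0.129 for LEF1. ID2 was also lost without positive replicate 1 (0.0933) or negative replicate 3 (0.0905), GBX2 without positive replicate 1 (0.0703) or negative replicate 2 (0.0765), and LEF1 without negative replicate 2 (0.118) or 3 (0.11). FOXD3 (458 in positive and 509 in negative libraries), SNAI2 (801 and 562), TWIST1 (521 and 471) and MITF (4133 and 4695) did not pass. All SNAI2 positive libraries were above all negative ones, with log2 differences of 0.62 and 0.65 within the low and high set. With the number set as a block, limma called SNAI2 (adjusted p = 7.85e-11) and TWIST1 (0.00426) higher and FOXD3 (0.000464) lower. MITF (0.635) was not called in that fit, which called 4523 genes.

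SOX11 fell to 129 ± 8.19 normalized reads in A375 positive cells, against 309 ± 27.0 in negative cells (-1.26 ± 0.10 SE, limma adjusted p = 0.000726), the 1 call among 10 SOX genes. In the CUT homeobox family, to which CUX1 and CUX2 belong, ONECUT1 fell to 12.3 ± 2.20 normalized reads in positive cells, against 40.4 ± 5.66 in negative cells (limma adjusted p = 0.00502), while ONECUT2 did not pass. The calls of SOX11 and ONECUT1 held whichever library was dropped.

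Among 19 retinoid receptors, retinoid enzymes and partners of MN1, 1 was called in A375, the retinoic acid synthesizing enzyme ALDH1A3, which fell to 5227 ± 342 normalized reads in positive cells, against 7356 ± 570 in negative cells (-0.49 ± 0.07 SE, limma adjusted p = 0.00692). The call held whichever library was dropped. The retinoic acid receptors RARA (619 and 613), RARB (269 and 324) and RARG (1085 and 1056), the acetyltransferase EP300 (1963 and 2233) and the coactivator NCOA3 (644 and 726 in positive and negative libraries) did not pass. With the number set as a block, limma called EP300 lower (adjusted p = 0.000112). It did not call NCOA3 (0.0876), RARA (0.144), RARB (0.178) or RARG (0.124).

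Of 12 ERBB receptors, ligands and regulators in A375, 3 rose and 1 fell. The neuregulin gene NRG3 had 52.9, 49.2 and 81.1 normalized reads in the positive branch, against 6.0, 19.8 and 21.9 in the negative branch (2.02 ± 0.45 SE, limma adjusted p = 0.0303), the EGFR ligand TGFA rose 1.32-fold (2525 ± 195 and 1913 ± 195, 0.0271) and the adaptor SHC1 by 0.43 on the log2 scale (7063 ± 589 and 5236 ± 343, 0.0131). Without positive replicate 1 the limma adjusted p was 0.0928, 0.112 and 0.0608 for NRG3, TGFA and SHC1, and without positive replicate 2 it was 0.0911, 0.121 and 0.0705. Without negative replicate 2 it was 0.0648, 0.11 and 0.0658. TGFA (0.111) and SHC1 (0.0643) were also lost without negative replicate 3, and NRG3 (0.0546) without positive replicate 3. ERBB2, the partner of ERBB3, was at 669 in positive and 734 in negative libraries and did not pass.

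In the endothelin axis, 3 of 9 tested genes rose in A375 and 0 fell. A pair of phospholipases that act downstream of the receptors rose, PLCB1 to 762 ± 101 normalized reads in positive cells, against 303 ± 8.50 in negative cells (1.32 ± 0.10 SE, limma adjusted p = 0.000648), and PLCB4 1.29-fold (296 ± 7.26 and 230 ± 11.5, 0.0268). The G-protein regulator RGS4 had 26.0, 16.1 and 20.3 normalized reads in the positive branch, against 4.0, 2.0 and 5.0 in the negative branch (limma adjusted p = 0.00848). PLCB4 lost its call without positive replicate 1 (0.0912) or 2 (0.107) and negative replicate 2 (0.0681) or 3 (0.11). The ligand EDN3 had at most 8.0 and the sister receptor EDNRA at most 6.0 normalized reads in any A375 library, and the G-protein genes GNAQ (942 and 949) and GNA11 (1285 and 1219) did not pass.

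**Figure D4:**
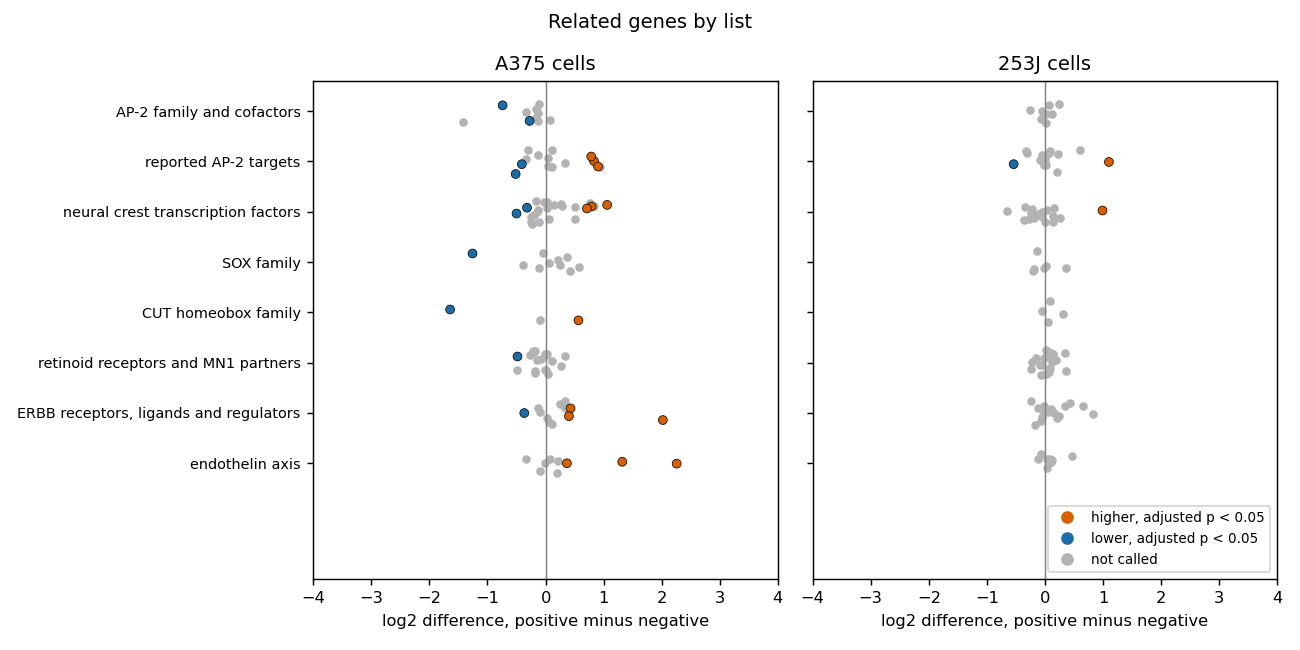
Log2 differences, positive minus negative, of related genes in 8 lists in A375 (left) and 253J (right), 1 point per tested gene. Coloured points passed limma at an adjusted p of 0.05, 23 genes in A375 and 3 in 253J.

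In 253J, 2 of 100 tested list genes rose and 1 fell, where 0.529% of all genes were called higher and 0.564% lower. The chemokine CXCL8, a reported AP-2 target, stood at 2689 ± 462 normalized reads in positive and 1260 ± 269 in negative cells (1.10 ± 0.17 SE, limma adjusted p = 0.0223). The epithelial cadherin CDH1, another reported target, fell to 1978 ± 189 in positive cells, against 2871 ± 198 in negative cells (-0.54 ± 0.08, 0.0194), and ID4, a relative of ID2, rose 1.96-fold (138 ± 15.2 and 69.7 ± 2.90, 0.0109). Without positive replicate 1 the limma adjusted p was 0.138 for CXCL8, 0.125 for CDH1 and 0.0845 for ID4, without positive replicate 2 it was 0.15, 0.149 and 0.0827, and without negative replicate 2 it was 0.0603, 0.0723 and 0.0558. CDH1 was also lost without negative replicate 1 (0.0589). Among the 6 lists with no call in 253J (66 genes), 12 genes had an unadjusted p under 0.05 and edgeR and DESeq2 called 0. With the replicate block 13 list genes rose and 8 fell. Of the 86 list genes tested in both lines, 20 were called in A375 and 2 in 253J, and 0 in both. With the replicate block in 253J, 19 of them were called there and 2 of these also in A375, namely IGFBP5 (log2 difference 0.60 in 253J, limma adjusted p = 0.0396 with the block and 0.369 without) and RGS4 (0.46, 0.000651 and 0.403), both higher in positive cells of both lines. A contrast of the differences in A375 and in 253J was called for 15 of these 86 genes, against 6.16% of all genes. It contains the A375 difference, which was known when the lists were drawn up, so nothing is read from that share.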

How the data were processed

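Poly(A) RNA-seq was analysed from 12 libraries of the established human lines A375 and 253J. The deposited unit is a signal, namely size-factor-normalized gene counts to 1 decimal as the values show, in a table for each line. Per the submitters' processing notes, cutadapt, STAR 2.4.2a, HTSeq and DESeq2 were used with GRCh38; settings, annotation release and counting strand are not given in the sources used here.

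Dividing by the step between low values gave whole reads within 0.055 for at least 99.964% of values in every library, 14576506 to 17916519 reads per library. The plan named edgeR for raw counts and limma for normalized values, and the values were normalized. The main test was therefore limma-trend (R 4.3.3 with limma 3.58.1). It used the log2 of each value plus 1, for genes averaging at least 10 in the line, with Benjamini-Hochberg adjustment at 0.05, each line alone. edgeR 4.0.16 and DESeq2 1.42.0 were run on recovered reads, and all 3 were tested on simulated data. The difference between lines was a contrast in 1 limma fit of all 12 libraries, added after the first results.

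Replicate numbers come from the titles. Deviations from the branch means of same-numbered libraries correlated at 0.187 to 0.496 in 253J. There, positive replicate 1 with negative replicate 2 (0.21) and positive replicate 2 with negative replicate 1 (0.165), all of the low set, correlated much like pair 2 (0.187). A pairing by replicate number thus cannot be told apart from the number set in 253J, and the replicate block is given as an alternative fit. In A375 same-numbered libraries correlated at -0.272 to 0.415 and were not taken as pairs.

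The members and lists were chosen with earlier results of these data known. All 10 members are named, together with up to 3 called genes of smallest p per list and line and the 5 genes nearest in profile to MN1, TFAP2B and CUX2. A gene that this rule names is not reported here. Alternatives changed the pseudocount, filter, scaling, tool, block and libraries used. GENCODE release 29 on GRCh38 gave positions, types and exon lengths for 99.624% of 19423 identifiers. Read counts limit low levels. The exact intervals of the ratios of summed reads cover counting error only, whereas the intervals given with limma results reflect the spread between libraries.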

Additional observations from a re-analysis of the deposited data

Results flagged for a closer look

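The difference between branches was compared between the lines (A375 minus 253J, limma over all 12 libraries, added after the first results) for all 86 list genes tested in both. Of these, 15 differed between the lines at an adjusted p of 0.05, where 770 of 12509 genes did. The lists were drawn up with A375 results known, and the contrast contains the A375 difference. Nothing is therefore read from the share of list genes called against that of all genes. On the log2 scale, the contrast was -0.76 for WWOX (limma adjusted p = 0.0221), -0.49 for BCL2 (0.0257), 0.85 for CDKN1A (0.0031), 0.95 for MSX2 (0.0214) and 0.85 for ID2 (0.031). It was -1.09 for ID4 (limma adjusted p = 0.0116), -0.66 for TBX3 (0.0364), -1.11 for SOX11 (0.00635), -1.59 for ONECUT1 (0.00446) and -0.38 for EP300 (0.00958). The remaining values were -0.58 for ETV6 (limma adjusted p = 0.0194), -0.43 for GAB1 (0.0455), 0.44 for SHC1 (0.0139), 1.44 for PLCB1 (7.51e-05) and 1.80 for RGS4 (0.0179). The members were left out of this contrast, because their choice rested on the A375 difference, so a difference between lines was not tested for them.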

How the results depend on the processing

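The values of the members kept their direction in A375 under each alternative, except SOX9, whose small difference changed sign within the low set (-0.01); with 1 library left out MN1 ranged from 4.28 to 4.78, TFAP2B from 2.56 to 2.80 and CUX2 from -4.55 to -3.92. With a pseudocount of 5 the MN1 difference was 3.76. The median absolute difference of the members in A375 was 0.37 to 0.43 without 1 library. With upper quartile scaling the median of all genes was 0.01 in A375 and -0.01 in 253J. In A375, 2429 genes were called with the replicate block, 4523 with the number set as a block, 2906 within the low and 2335 within the high set, against 1447, and 488 to 1878 without 1 library (548 without positive replicate 1, 488 without positive replicate 2, 541 and 595 without negative replicates 2 and 3). Same-numbered libraries did not deviate together in A375 for replicate 2 (-0.272), but these 2 libraries come from different number sets. Positive replicate 3 and negative replicate 2, of 1 set, correlated at 0.426. These correlations therefore cannot decide whether the numbers mark pairs in A375. List genes called higher in A375 numbered 7 with no filter, 23 with the number set as a block, 21 within the low set and 4 to 18 without 1 library. Those called lower numbered 28 with the number set as a block and 4 to 14 without 1 library. In 253J, 155 genes were called; it was 58 with no filter, 296 by DESeq2, 1991 with the replicate block, 2645 with the number set as a block, 2977 within the low set and 39 to 370 without 1 library (43 and 39 without positive replicates 1 and 2, 75, 54 and 370 without negative replicates 1, 2 and 3). List genes called higher there numbered 0 with no filter, 13 with the replicate block, 18 with the number set as a block, 19 within the low set and 0 to 4 without 1 library. Those called lower numbered 0, 8, 8 and 14 under those settings and 0 to 1 without 1 library. Members called in 253J were 0, and 1 with no filter, 3 with the replicate block, 3 with the number set as a block and 3 within the low set. Fits within a set of 3 A375 libraries assume that the lone library varies like the others, and the high set of 253J has 1 library per branch and gave no test. Depth limits MN1 in A375 negative cells and the 5 members with at most 3 reads in 253J.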
